A study of Danio rerio with 5 samples.

Results

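The 9 genes described here encode proteins that write or read N6-methyladenosine (m6A), a methyl mark on the adenosines of mRNA, or that stabilise maternal mRNA. They were chosen by symbol from the 32520 genes of the deposited tables. They comprise the YTHDF readers ythdf1, ythdf2 and ythdf3, the Igf2bp genes igf2bp1 and igf2bp3, the Y-box gene ybx1, and the writer genes mettl3, mettl14 and wtap. Each symbol matched 1 gene, and all 9 passed the filter on low counts. The RNA came from whole embryos of the zebrafish, Danio rerio, taken 4 hours after fertilisation. The study asked how many guide RNAs can be injected together with RfxCas13d, an RNA-cutting nuclease directed by guides that match a target RNA. The 3 control libraries, replicates 1 to 3, are labelled only as controls for the nuclease. The pool of 10 guides (1 library) held a guide against szrd1 and 9 others, and the pool of 25 (1 library) held the szrd1 guide and 24 others. No source used here gives the strain, the content of the control injection, the number of embryos per library or what the other guides target. Per the labels' protocols, Nextera XT reactions were scaled down to 1/4 volume for 2 controls (replicates 1 and 2) and to 1/8 volume for control replicate 3 and each guide pool. Control values below are in the order of replicates 1 to 3. Nothing states that the controls came from separate clutches, so p-values measure the spread between these libraries only, which may be technical.

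m6A is laid on nascent mRNA by a heterodimer of Mettl3, the catalytic subunit, and Mettl14, which helps bind the RNA. Wtap holds this dimer in the larger writer complex. YTHDF proteins bind the mark in the cytoplasm and bring transcripts to the deadenylation machinery, and in zebrafish Ythdf2 has been linked to the clearance of maternal mRNA. Igf2bp3 and Ybx1 bind maternal transcripts and have been linked in zebrafish to their stability, and Ybx1 also holds back translation of maternal nodal mRNA.

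Counts assigned to genes ranged from 5283761 in control replicate 3 to 14179837 in control replicate 2. The share of unmapped reads was highest in control replicate 3, at 44%, and lay from 13.1% to 21% elsewhere. The targeted gene szrd1 was at 221, 278 and 311 CPM in the controls and 41.3 and 45.6 CPM in the pools of 10 and 25. CPM here is a count scaled to a common library total with TMM factors. The tissue label was checked against marker lists. All 7 zygotic blastula genes, 5 maternal and germ plasm genes and 6 enveloping layer genes had TPM above 0 in every library. For cyt1 of the enveloping layer this rested on 0.14 TPM and a count of 0 in control replicate 1. Of 5 yolk syncytial layer entries, 4 were above 0 in every library. So were 3 of the 6 genes of later tissues, so presence alone does not tell the lists apart. The later-tissue list summed to between 3.67 and 9.61 TPM, with myl7 and gfap at 0 throughout. The maternal and germ plasm genes summed to 724, 572 and 907 TPM in the controls and 1285 and 1159 TPM in the pools. This was the single list of the 5 with both pools outside the control range. On the TPM scale 22.7% of all single genes tested had both pools above every control. Most of that difference was buc, at 334, 181 and 600 TPM in the controls and 922 and 815 TPM in the pools. zar1 was at 65.9, 56.3 and 54.5 TPM in the controls and 70.9 and 80 TPM in the pools. In CPM the pools were also above every control for buc but not for zar1. There zar1 was at 61.8, 58.1 and 36.2 CPM in the controls and 45 and 48.9 CPM in the pools. For dazl, nanos3 and ddx4 the pools lay inside the control range in TPM. Enveloping layer genes summed to 366 TPM in control replicate 1, against 1383 and 1416 TPM in control replicates 2 and 3 and 1168 and 1206 TPM in the pools. The part of these differences between embryos or libraries in the results below was not tested. In whole embryos, fewer cells of a type and less RNA per cell cannot be told apart.

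Transcripts of all 9 genes were present in every library, from the abundant ybx1 down to ythdf1 and igf2bp1. The lowest count of any of them was 257, for igf2bp1 in control replicate 1, with an exact Poisson 95% interval of 227 to 290 that covers counting error only. On the deposited TPM scale, which allows for transcript length, ybx1 had a control mean of 690 ± 142 TPM (SD, n = 3). It was the highest of the 9 genes in all 5 libraries. Next in the order of control means were wtap at 176 ± 149 TPM, ythdf2 at 113 ± 48.5 TPM, mettl14 at 111 ± 10.2 TPM and igf2bp3 at 91.9 ± 68.8 TPM. Below them came ythdf3 at 63.1 ± 69.9 TPM, mettl3 at 49.8 ± 26.2 TPM, igf2bp1 at 24 ± 16.3 TPM and ythdf1 at 20.7 ± 16.6 TPM. Only ybx1 differed in mean TPM from its neighbour by more than the larger SD of the pair. The order of neighbours among the other 8 is therefore not settled by these controls. Within each of the 5 libraries, igf2bp1 and ythdf1 held ranks 8 and 9, in either order, and mettl3 held rank 6 or 7. The wide SDs of wtap, ythdf3 and igf2bp3 came from control replicate 3, where wtap was at 348 TPM against 95.3 and 84.9 TPM in control replicates 1 and 2.

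**Figure D1:**
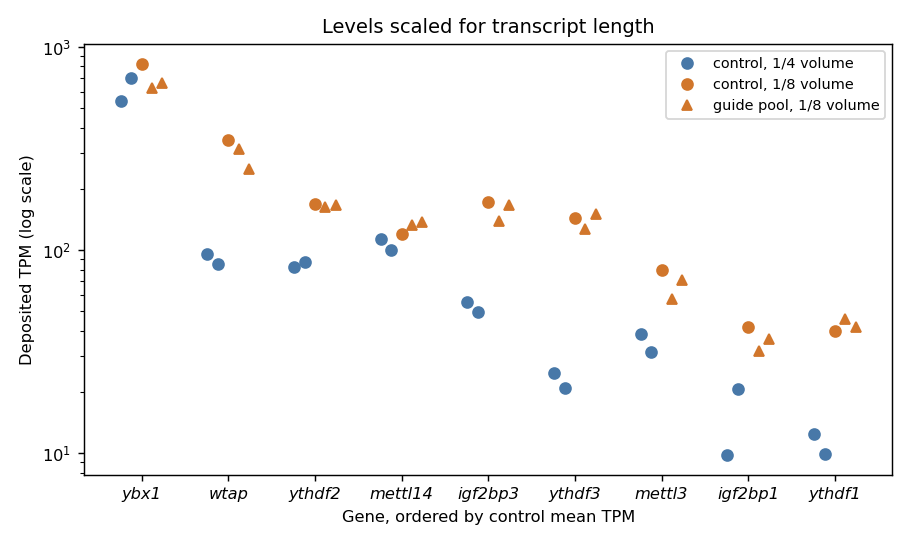
Deposited TPM (log scale) of the 9 genes in each of the 5 libraries, ordered by control mean; circles are controls, triangles are guide pools, and colour marks the library volume. ybx1 is highest in every library, and for 8 of 9 genes, all but ybx1, the libraries at 1/8 volume lie above those at 1/4, as they do on this scale for 43.6% of all genes tested.

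TPM and CPM place the libraries differently. Over the 16445 genes tested, the median log2 difference between the libraries made at 1/8 and those at 1/4 volume was 0.55 in TPM, 0.24 in CPM without scaling factors and -0.05 in TMM-scaled CPM. Comparisons of a gene between libraries below are therefore in TMM-scaled CPM, and a direction that turns on another scale is named as such.

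The reader genes differed in how much they varied. ythdf2 was steady in CPM, at 159, 193 and 165 CPM in the controls and 177 and 203 CPM in the pools of 10 and 25. It was not steady in TPM, at 82.7, 86.8 and 169 TPM in the controls and 162 and 166 TPM in the pools. Its control SD was 10.6% of the mean, the smallest of the 9 genes in CPM, with the pool of 10 inside the control range and the pool of 25 just above it. ythdf3 was at 68, 58.3 and 231 CPM in the controls and 216 and 234 CPM in the pools of 10 and 25. Control replicates 1 and 2 were low and control replicate 3 stood at the level of the pools, so its control SD was 81.5% of the mean. ythdf1, the least abundant reader, followed the same layout at 45.9, 38.5 and 80.8 CPM in the controls and 85.9 and 72.7 CPM in the pools of 10 and 25. For ythdf1 the pools lay on either side of control replicate 3 and above the other controls.

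The make-up of the reader transcripts differed between libraries in the same way. As a share of the summed TPM of the 3 genes, which does not depend on scaling between libraries, ythdf3 made up 20.7%, 17.7% and 40.8% in the controls and 37.9% and 42% in the pools. ythdf2 made up 68.9%, 73.9% and 47.9% in the controls and 48.4% and 46.4% in the pools. ythdf1 stayed between 8.43% and 13.7% in all 5 libraries. Thus in TPM ythdf2 held the largest share in every library, with ythdf3 close behind it in control replicate 3 and both pools. In CPM, which does not allow for transcript length, ythdf3 was above ythdf2 in control replicate 3 and both pools. The summed reader signal was 273, 290 and 477 CPM in the controls and 479 and 510 CPM in the pools. No such shares or sums were computed for other genes, and 52.8% of single genes tested did not overlap between the volumes in CPM.

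**Figure D2:**
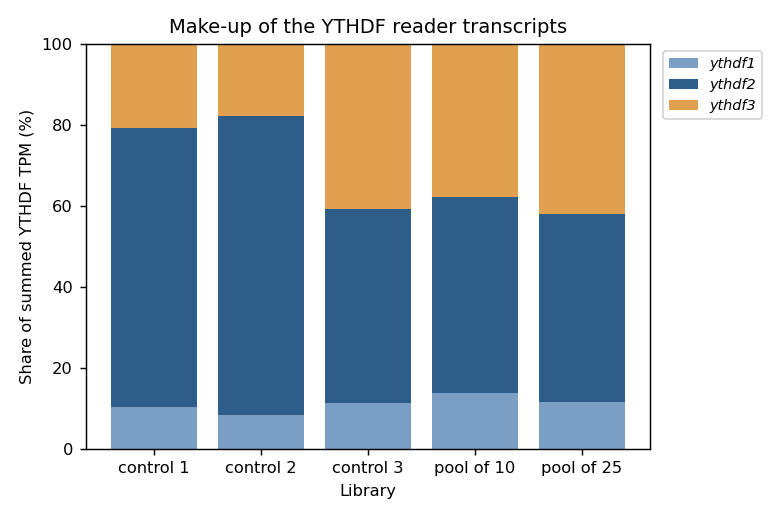
Share of the summed TPM of ythdf1, ythdf2 and ythdf3 (%) held by each gene, 1 bar per library. ythdf3 holds 20.7% and 17.7% in control replicates 1 and 2 and between 37.9% and 42% in control replicate 3 and the pools.

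Of the genes for mRNA-stabilising proteins, igf2bp3, whose product binds maternal transcripts, was at 216, 211 and 271 CPM in the controls and 251 and 274 CPM in the pools of 10 and 25. Its libraries at 1/8 volume were all above those at 1/4, by a ratio of means of 1.24. igf2bp1, which encodes a close relative known for binding mRNA coding regions, was at 21.9, 43.1 and 49.2 CPM in the controls and 37 and 44.5 CPM in the pools of 10 and 25. Here control replicate 1 was low by itself and the pools lay inside the control range. The ratio of igf2bp1 to igf2bp3 in TPM was 0.177, 0.417 and 0.244 in the controls and 0.229 and 0.219 in the pools, so igf2bp3 was the more abundant in every library.

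ybx1, which encodes the Y-box protein, was at 600, 849 and 615 CPM in the controls and 468 and 467 CPM in the pools of 10 and 25. The pools lay below every control and nearly coincided, at 0.68 and 0.678 of the control mean and at 0.761 and 0.759 of control replicate 3. It was the single member with both pools outside the control range, 1 of 9 below and 0 of 9 above. Among all genes tested, 14.9% had both pools below, 14.6% had both above and 29.5% had either. Without control replicate 3 the count was 6 of 9, against 64.6% of all genes, and without control replicate 2 it was 2 of 9, against 35.4%. On the TPM scale the pools were at 623 and 663 TPM, inside the control range of 542 to 826 TPM. On that scale the count was 2 of 9, against 30.2% of genes, and the members were ythdf1 and mettl14, both with the pools above every control.

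The writer genes differed from each other in pattern. wtap was at 154, 150 and 344 CPM in the controls and 314 and 243 CPM in the pools of 10 and 25. Control replicate 3 was the highest library and the 1/4 volume controls the lowest. mettl14 ran the other way in CPM, at 162, 152 and 107 CPM in the controls and 126 and 119 CPM in the pools of 10 and 25, with control replicate 3 the lowest library. In TPM its libraries at 1/8 volume were instead above those at 1/4, by a ratio of means of 1.22. mettl3, the catalytic subunit, was at 62.9, 52.3 and 78.4 CPM in the controls and 59.4 and 69.9 CPM in the pools of 10 and 25, with both pools inside the control range. The TPM ratio of mettl14 to its partner mettl3 was 2.96, 3.19 and 1.5 in the controls and 2.32 and 1.92 in the pools. That of wtap to mettl3 was 2.49, 2.72 and 4.36 in the controls and 5.47 and 3.54 in the pools. For both ratios the 3 libraries at 1/8 volume did not overlap those at 1/4. No share was computed for ratios of other genes, and 52.8% of single genes tested did not overlap between the volumes in CPM.

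**Figure D3:**
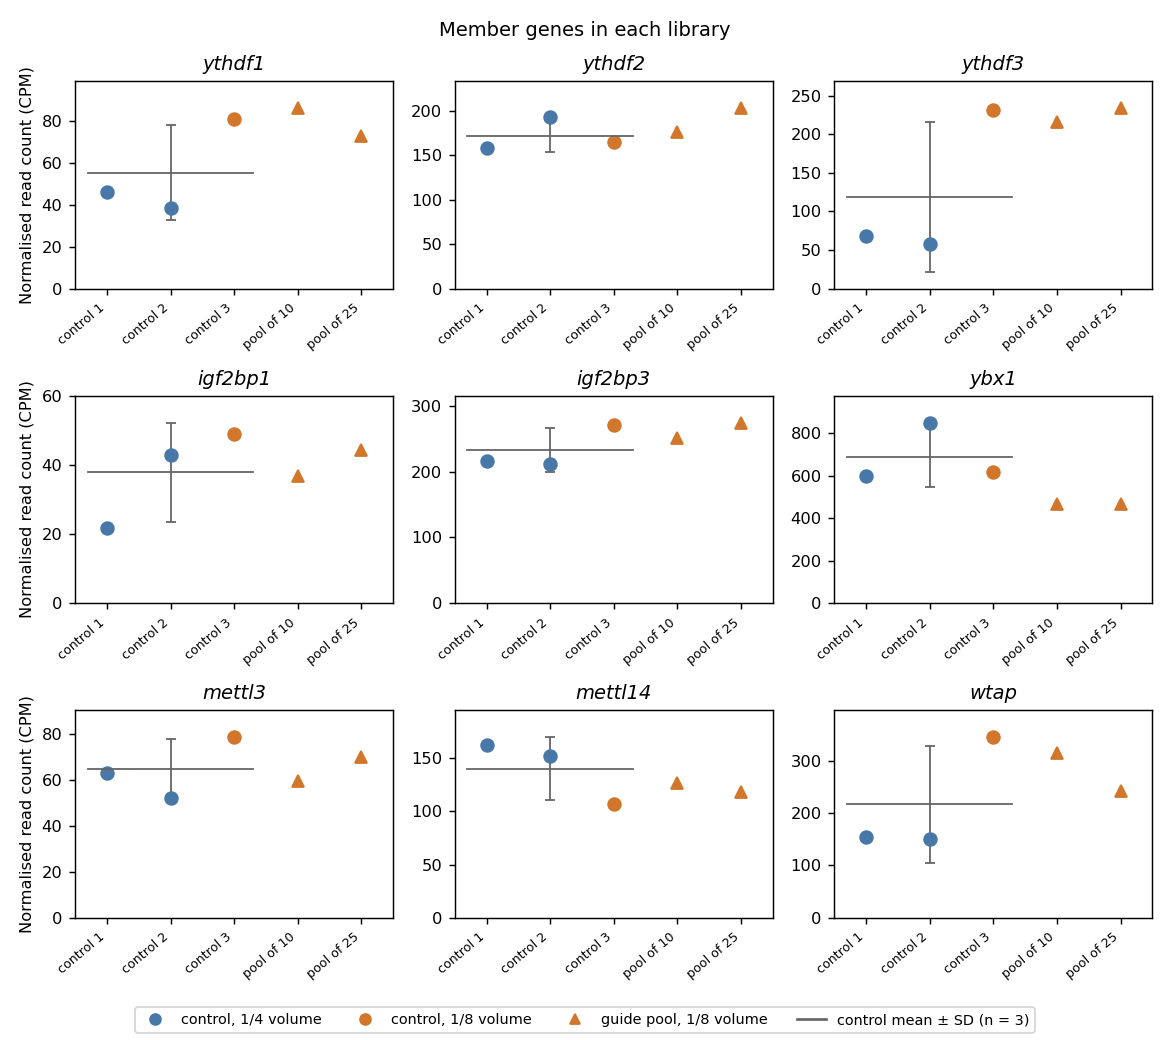
Normalised read count (TMM-scaled CPM) of each of the 9 genes in the 5 libraries; the line and bar give the control mean ± SD (n = 3), and colour marks the library volume. ythdf1, ythdf3 and wtap are low in control replicates 1 and 2 and high in control replicate 3 and the pools, while ybx1 is lowest in the pools.

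The comparison of both pools with the 3 controls asks whether the guide pools changed these transcripts. Its fit treats the 2 pools, of 10 and 25 guides, as 1 group. Neither pool is replicated there, and the difference between them counts as spread. No member passed edgeR's quasi-likelihood test after Benjamini-Hochberg adjustment over all genes: 0 of 9, against 0% of the 16445 genes tested. At an unadjusted p under 0.05 there were also 0 of 9, against 10.6% of all genes. DESeq2 and limma voom called 0 of 9 as well, and 106 and 0 genes in all. The targeted gene szrd1 was not called in this edgeR fit either, at a log2 fold change of -2.63 (interval -3.52 to -1.75, edgeR adjusted p = 0.232). A missing call therefore does not show that a member was unchanged. The log2 fold change was 0.92 for ythdf3 (SE 0.565, 95% interval -0.34 to 2.18, edgeR adjusted p = 0.52). It was -0.56 for ybx1 (SE 0.343, interval -1.32 to 0.21, edgeR adjusted p = 0.521) and 0.53 for ythdf1 (SE 0.425, interval -0.42 to 1.47, edgeR adjusted p = 0.613). For wtap it was 0.37 (SE 0.443, interval -0.62 to 1.35). The other 5 genes had values between -0.20 for mettl14 and 0.17 for igf2bp3. The median of the 9 was 0.14, beside -0.08 over all genes tested, with 7 of 9 above 0, beside 46.6% of all genes. Taken singly, the pool of 10 and the pool of 25 each had 0 of 9 members called, against 0% of all genes in either comparison. At an unadjusted p under 0.05 the counts were also 0 of 9, against 3.22% of genes for the pool of 10 and 3.05% for the pool of 25. There the smallest edgeR adjusted p of a member was 0.951 and 0.913.

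These values depend on which control the pools are set against. With a term for library volume, the fit sets the pools against control replicate 3 alone. The log2 fold change was then -0.04 for ythdf3 (95% interval -0.65 to 0.57), -0.03 for ythdf1 (-0.72 to 0.66) and -0.31 for wtap (-0.92 to 0.30). Of the 9 genes ybx1 kept the lowest value, at -0.40 (-1.01 to 0.22), and 2 of 9 were above 0, beside 51.6% of all genes tested. Without control replicate 3 the pools were set against control replicates 1 and 2, which were all of the other volume. Then 3 of 9 members were called, all higher, and 4210 of 17025 genes tested in all, with 11.9% of them called higher. The members were ythdf3 (log2 fold change 1.82, SE 0.226, edgeR adjusted p = 0.00176), wtap (0.86, SE 0.223, adjusted p = 0.0212) and ythdf1 (0.90, SE 0.251, adjusted p = 0.0278). The targeted gene szrd1 was also called in that setting, lower, at -2.53 (SE 0.245, edgeR adjusted p = 0.00168). With the volume term szrd1 had a log2 fold change of -2.84. No call of szrd1 is given there, as control replicate 3 is the single reference library. Without control replicate 3, volume and guides cannot be told apart.

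**Figure D4:**
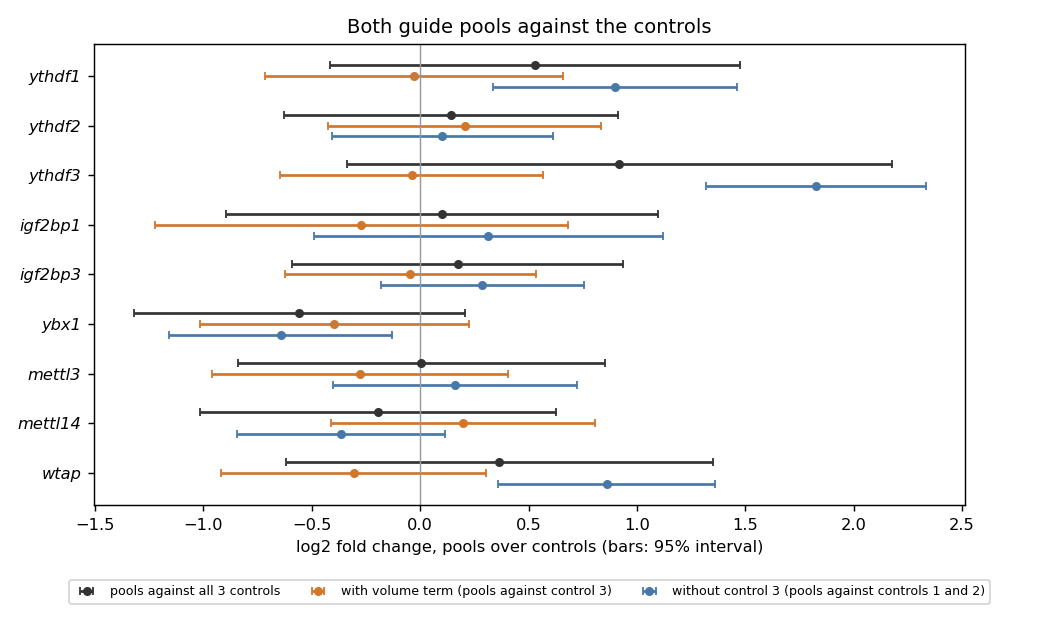
Log2 fold change of each gene in both pools over the controls, with 95% intervals from edgeR, against all 3 controls, with the volume term, and without control replicate 3. Intervals exclude 0 only without control replicate 3, for ythdf1, ythdf3, wtap and ybx1; the adjusted p of ybx1 was then 0.0686.

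A comparison of the 3 libraries at 1/8 volume with the 2 at 1/4 was added after the values were seen. It called ythdf3, wtap and ythdf1 higher, 3 of 9 against 26.5% of all genes called in either direction. ythdf3 had a log2 fold change of 1.85 (SE 0.212, edgeR adjusted p = 0.000571), or 3.6-fold, with an interval of 2.6-fold to 4.97-fold. wtap had 0.98 (SE 0.218, edgeR adjusted p = 0.00778) and ythdf1 0.92 (SE 0.236, edgeR adjusted p = 0.0153). By direction, 13% of all genes were called higher and 13.5% lower. The counts depend on scaling. With limma on log2(TPM + 1), 7 of 9 members were called, all higher, beside 25.7% of all genes higher (4232, with 752 lower). With edgeR on library size only, 4 of 9 were called higher, the fourth being igf2bp3, beside 20% of all genes. With ybx1, 4 of 9 had an unadjusted p under 0.05, against 37.8% of all genes. The 4356 genes called in all became 2692 without control replicate 2. ybx1 was at -0.49 (adjusted p = 0.127) and mettl14 at -0.42 (adjusted p = 0.15) by edgeR, and both had a positive sign on the TPM scale. ythdf2 was at 0.05 in counts, with an interval of 0.753-fold to 1.42-fold, while the TPM scale gave 0.96. By ranges alone, 4 of 9 members (ythdf1, ythdf3, igf2bp3 and wtap) had all libraries at 1/8 volume above both at 1/4, against 25.1% of genes tested. mettl14 alone lay below, 1 of 9 against 27.7%, and 52.8% of genes did not overlap in either direction. With a term for the guide pools, this contrast sets the single library of control replicate 3 against the other controls. The spread then comes from the 2 controls at 1/4 volume and the 2 pools, and control replicate 3 is assumed to vary like them. In that fit ythdf3 had 1.87 (edgeR adjusted p = 0.00543), wtap 1.18 (adjusted p = 0.0169) and ythdf1 0.94 (adjusted p = 0.0576). The first 2 were called higher, 2 of 9 against 8.84% of all genes, which compares these libraries and is no separate support for a volume difference. Without control replicate 2, ythdf1 was at 0.79 (edgeR adjusted p = 0.0956). Volume cannot be told apart from any other step in which these libraries differed.

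Within the controls, control replicate 3 exceeded the mean of control replicates 1 and 2 by a log2 difference of 1.87 for ythdf3, a value passed by 5.17% of all genes tested. The difference was 1.18 for wtap (passed by 16.1% of genes) and 0.94 for ythdf1 (21.6%). ythdf3 and wtap were at least 2-fold above both other controls, 2 of 9 against 14.6% of genes, and 0 of 9 were as far below, against 20.3%. From control replicate 3 to the mean of the pools, the same genes differed by -0.04, -0.32 and -0.03. The median absolute difference of the 9 genes was 0.55 between control replicate 3 and the other controls and 0.20 between the pools and control replicate 3. All genes tested had 0.88 and 0.44, so both were smaller for the 9 genes. The same held between control replicates 1 and 2 (0.25 against 0.44) and between the pools (0.20 against 0.36). All genes tested include genes with lower counts than any of the 9, and no set matched for level was compared. No test was made of these differences.

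**Figure D5:**
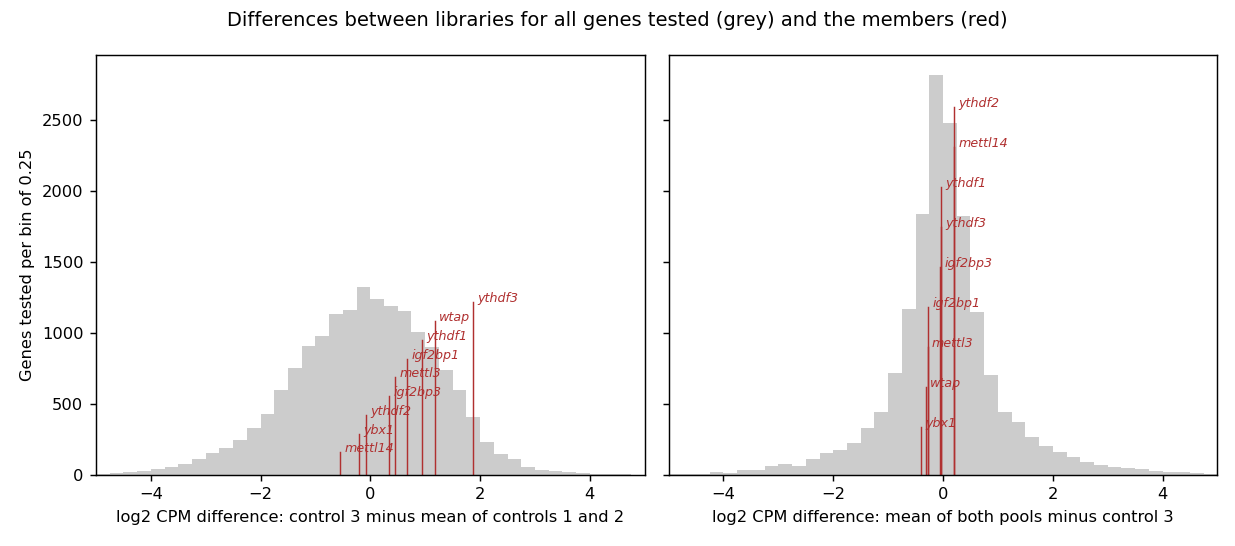
Number of genes tested by log2 CPM difference, in bins of 0.25, between control replicate 3 and the other controls (left) and between the pools and control replicate 3 (right), with the 9 genes marked in red (line heights only separate the names). ythdf3 lies at 1.87 on the left and at -0.04 on the right.

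The pool of 25 was set against the pool of 10 to ask whether the number of guides went with a difference. None of the 9 genes was called, 0 of 9 against 0% of all genes, and 0 of 9 had an unadjusted p under 0.05, against 0.791% of all genes. DESeq2 and limma voom also called 0 genes in all. The largest log2 difference of the 9 was that of wtap, at -0.37 (SE 0.818, edgeR adjusted p = 1). Its 95% interval runs from 0.221-fold to 2.71-fold. For ybx1 the ratio was 0.997 with an interval of 0.35-fold to 2.84-fold, and for ythdf3 it was 1.08 with one of 0.238-fold to 4.95-fold. These intervals take their spread from the 3 controls, which mix both library volumes. With the volume term the log2 differences were the same and the intervals narrower, with the spread taken from control replicates 1 and 2. With 1 library per pool, neither fit measures the spread within a pool, and differences inside the intervals given are not detectable in the first.

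Other genes of the m6A pathway were taken from 6 lists of 32 symbols. Of these 30 matched a gene, and 28 passed the filter on low counts. igf2bp2b and ahcyl1 did not pass, and hnrnpa2b1 and ybx3 did not match by symbol. In the comparison of both pools with the controls edgeR called 0 of 28, against 0% of all genes, with 14 above 0 and 14 below. The median log2 fold change was 0.44 for the 2 demethylase genes, 0.44 for 7 other m6A-binding genes, -0.24 for 5 other Igf2bp and cold shock domain genes and -0.41 for 4 genes of the S-adenosylmethionine cycle, beside -0.08 over all genes tested. With the volume term these were 0.19, 0.16, 0.01 and 0.09. Both pools lay above every control for 4 of the 28 and below every control for 3, or 7 of 28 in all, beside 14.6%, 14.9% and 29.5% of all genes. The 4 were fto, alkbh5, fmr1 and PRRC2B, and the 3 were mettl16, trmt112 and mat2ab, of which mettl16 was named after its values were seen. Of these 7 in TPM, both pools were outside the control range for alkbh5, fmr1 and PRRC2B only. Values of the list genes with the smallest unadjusted p follow.

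Among the other 5 writer subunits, rbm15, which guides the complex to its RNA sites, was at 23, 22.6 and 48.6 CPM in the controls and 37.7 and 77.9 CPM in the pools of 10 and 25. virma, the scaffold of the complex, was at 7.14, 10 and 33.1 CPM in the controls and 28.9 and 31.2 CPM in the pools. Both shared the layout of wtap, with control replicates 1 and 2 the lowest. The median log2 fold change of the 5 was 0.05, and with the volume term it was 0.25. Of 5 further RNA methyltransferase genes, mettl5, which methylates ribosomal RNA, was at 281, 222 and 76.9 CPM in the controls and 77.8 and 86.2 CPM in the pools. trmt112, the cofactor of Mettl5, was at 40.3, 82.6 and 51.1 CPM in the controls and 39.8 and 30.8 CPM in the pools. For mettl5 the unadjusted p of 0.0415 became an edgeR adjusted p of 0.465, and the median of these 5 was -0.56. It became -0.16 with the volume term.

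The demethylase genes fto and alkbh5 encode enzymes that can remove the mark. fto was at 22, 15 and 24.9 CPM in the controls and 30.4 and 30 CPM in the pools. alkbh5 was at 25.8, 25.8 and 33.1 CPM in the controls and 37.4 and 33.7 CPM in the pools. Both pools lay above every control for each of these genes, with log2 fold changes of 0.55 and 0.33 (edgeR adjusted p = 0.591 and 0.723). For alkbh5 the pool of 25 was at only 1.02 of control replicate 3. In TPM both pools were above every control for alkbh5 but not for fto. On that scale fto was at 7.52, 4.86 and 24.8 TPM in the controls and 18.5 and 17.1 TPM in the pools. Of 7 other m6A-binding genes, fmr1, a translational regulator, was at 73.7, 77.4 and 74.1 CPM in the controls and 107 and 110 CPM in the pools, again with no overlap (log2 fold change 0.53, edgeR adjusted p = 0.541). In CPM its level in control replicate 3 was that of the other controls. In TPM control replicate 3 was higher, with fmr1 at 20, 19.4 and 31.1 TPM in the controls and 43.9 and 49.6 TPM in the pools. PRRC2B was at 17.1, 18.4 and 58.5 CPM in the controls and 64 and 66.7 CPM in the pools, above every control but near control replicate 3.

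Of 5 tested genes related to igf2bp and ybx1, carhsp1 was at 49.1, 49.9 and 34.8 CPM in the controls and 35.5 and 34.6 CPM in the pools. In TPM carhsp1 was at 37.6, 35.7 and 46.9 TPM in the controls and 47.2 and 49.8 TPM in the pools. Its libraries at 1/8 volume were thus below those at 1/4 in CPM and above them in TPM. In the cycle that supplies the methyl donor S-adenosylmethionine, mat2b, a regulatory subunit of its synthetase, was at 279, 184 and 82.6 CPM in the controls and 89.1 and 86.4 CPM in the pools. mat2ab, a catalytic subunit gene, was at 3.23, 3.87 and 13 CPM in the controls and 2.43 and 3.01 CPM in the pools. These rest on low counts, 38, 46 and 75 in the controls and 18 and 22 in the pools. In carhsp1 and mat2b the pools were again nearer to control replicate 3 than to the other controls.

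Between library volumes, edgeR called 9 of the 28 list genes, 7 higher and 2 lower, beside 13% and 13.5% of all genes. Those named here were named after their values were seen. The higher genes included virma, rbm15, YTHDC2, prrc2a, PRRC2B and mat2aa, with log2 fold changes from 1.03 for mat2aa to 1.85 for virma. The lower ones were mettl5 at -1.65 and mat2b at -1.43.

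Genes with the pattern most like 3 of the members were found among 7643 others with a mean of at least 20 CPM. The measure was the root mean square difference in log2 CPM over the 5 libraries, after centring each gene. For ythdf2 these were zgc:66474 (0.0271), gorasp1a (0.0398) and safb (0.0419). For igf2bp3 they were prc1a (0.0368), supv3l1 (0.0433) and sclt1 (0.0462). For ybx1 they were srsf1b (0.0382), rac1b (0.0582) and mrpl23 (0.0587). srsf1b, a splicing factor gene, was at 72.4, 98.3 and 75.8 CPM in the controls and 53.9 and 54.3 CPM in the pools, so control replicate 2 was highest and the pools lowest as for ybx1. Among the 9 members themselves the closest pair was igf2bp3 and mettl3 (0.119) and the most distant was ythdf3 and ybx1 (1.17). With 5 libraries and 7643 candidates close matches are found for many patterns, so this is a description.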

How the data were processed

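The authors deposited whole-number gene counts and a second table per gene, read as TPM from its column sums. The submitters' processing notes name bcl2fastq 2.20 and the danRer11 build. How reads were aligned and counted is not stated in any source used here. Entries that name no gene were 26.7% to 53.8% of reads and were left out. From the counts, edgeR 4.0.16 (R 4.3.3) was used with TMM scaling, its expression filter at a minimum count of 10, the quasi-likelihood F test, and Benjamini-Hochberg adjustment over 16445 genes at 0.05. SE is the log2 fold change over the root of F. A fit of 3 groups (2 residual degrees of freedom) gave the single pools, whose spread is that of the controls. A fit of 2 groups (3 residual degrees of freedom) gave both pools together, as 1 group in which neither pool is replicated. Alternatives used DESeq2 1.42.0, limma 3.58.1 (voom, or log2 of TPM + 1 or + 0.1), other scalings and filters, a volume term, and each control left out. Scripts were tested on simulated data. Named were the 9 members, szrd1, the 2 genes per pathway list with the smallest p, and 3 genes of like pattern for ythdf2, igf2bp3 and ybx1. Members and lists were chosen with earlier results of these data known. List symbols were matched without regard to case, a choice made after seeing the files. The comparison of library volumes was also added then. The values of 1 gene that the naming rule selects are not reported here.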

Additional observations from a re-analysis of the deposited data

How the results depend on the processing

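No paired analysis was possible because the pools carry no replicate number. With both pools against the controls, the call count of 0 became 106 with DESeq2, 137 with no filter on low counts and 10 with the volume term, and ran from 0 to 4210 with each control left out (4210 without control replicate 3). For the pool of 10 it became 9 with DESeq2 and 19 with no filter, and 0 to 7 with each control left out; for the pool of 25 it became 9, 10, and 0 to 5. Between volumes the count of 4356 ran from 2692 to 4210 with each control left out (2692 without control replicate 2, 2963 without control replicate 1). The 1 member with both pools outside the control range became 2 with library size only (ybx1 below, ythdf2 above; 29.5% of all genes) or with TPM (ythdf1 and mettl14 above; 30.2%), and 1 to 6 with each control left out. All genes had 38.4%, 35.4% and 64.6% without control replicates 1, 2 and 3, where the members counted 1, 2 and 6.

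With both pools against the controls, signs turned with the volume term for ythdf1 (-0.028), ythdf3 (-0.040), igf2bp1 (-0.27), igf2bp3 (-0.046), mettl3 (-0.28), mettl14 (0.20) and wtap (-0.31). mettl14 also turned with library size only (0.050) and TPM (0.28), and mettl3 with a minimum count of 20 (-0.0032). With each control left out, igf2bp1 ran from -0.18 to 0.31 and mettl3 from -0.13 to 0.16. Over the 13 alternatives ybx1 stayed negative, from -0.65 to -0.08, and was called in 0.

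Between the pools, ybx1 turned positive with DESeq2 (0.0048), relative log expression scaling (0.0048), library size only (0.051) and TPM (0.089), and ran from -0.0041 to 0.020 with each control left out; mettl14 turned with TPM (0.037). Between volumes, ybx1 (0.18) and mettl14 (0.28) turned with TPM, and ythdf2 turned with the term for guide pools (-0.093) and ran from -0.093 to 0.19 with each control left out. ythdf3 and wtap were called higher there in all 13 alternatives and ythdf1 in 11. igf2bp3 was called in 4 (library size only and the 3 with TPM), ythdf2 and mettl3 in 3 with TPM, and igf2bp1 in 2 with TPM. The cause of these changes was not tested. The alternatives between volumes reuse the same libraries, so their calls are no separate support for a volume difference. Without control replicate 3 that comparison is the same fit as both pools against the controls.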
